A study of Mus musculus with 2 samples.

Results

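The genes described are the Hedgehog ligand gene Shh, the receptor and surface regulator genes Ptch1, Hhip, Boc, Cdon and Gas1, and the Gli transcription factor genes Gli1, Gli2 and Gli3. They were chosen by name, as the 9 of 19505 named genes on the array whose gene probes carry these symbols, and they had 15 of 41174 probes. Total RNA was measured on 2 one-colour expression arrays, 1 from day 6 embryoid body cells and 1 from day 0 embryonic stem (ES) cells, both of the mouse cell line R1, for which no genetic change is named. The day 6 cells came from direct neural differentiation as floating aggregates by a published procedure, and their label also calls them neural precursors. The day 0 cells were kept on inactivated fibroblast feeders with 15% fetal bovine serum and 1000 U/ml of leukaemia inhibitory factor, which holds mouse ES cells undifferentiated. The medium of the day 6 cells, the number of cultures behind each RNA and any removal of feeders are not stated in the labels. Each group had 1 array, so no difference below has a replicate check and none was tested.

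Hedgehog ligands are secreted, lipid-bearing proteins. Patched (Ptch1) is their receptor and keeps the membrane protein Smoothened (Smo) inactive until a ligand binds. Active Smoothened gathers in the primary cilium, the processing of Gli proteins into repressors stops, and Gli activators enter the nucleus. In the embryo, the notochord and then the floor plate secrete Shh below and within the neural tube, and the graded signal sets which progenitors form from ventral to dorsal. Ptch1, Hhip and Gli1 are genes that the signal turns on, while Boc, Cdon and Gas1 encode co-receptors whose expression Hedgehog signalling lowers in the mouse neural tube.

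The probes that the values turn on are shown to let a reader see what each gene's signal was read with. All are 60 bases long, and positions are in the mouse build mm7 that the file headers name. Bases 31 to 60 are printed for each, except for the Gli1 probe and the second Gli2 probe, which are printed whole. Capitals mark a polyadenylation signal hexamer, AATAAA or ATTAAA, read on the probe's strand. The exon that a probe lies in was not determined here.
Shh A_52_P49014, chr5:27489898-27489957, minus strand: tgagggaaagattattttgtgaggccaagc
Ptch1 A_52_P598605, chr13:61331255-61331314, minus strand: gatctttgctgatatttataattttgtatc
Ptch1 A_51_P127435, chr13:61333864-61333923, minus strand: catgtcaggtgtgagaggagggactcaaag
Hhip A_52_P249826, chr8:78511903-78511962, minus strand: tacattgtatagtttctgggacagttcgag
Hhip A_51_P416822, chr8:78506418-78506477, minus strand: ttctagtaggaaaatcttgtgtcttccttg
Boc A_52_P319495, chr16:44263258-44263317, minus strand: gtagacagttctgactcctgccaagtgggt
Cdon A_51_P334739, chr9:35399079-35399139, plus strand: ttaattcaaatcagagaaaccattatttat
Gas1 A_51_P157083, chr13:59283463-59283522, minus strand: tttttatcctaaagctcggtactgccatct
Gli1 A_51_P518548, chr10:126832331-126832390, minus strand: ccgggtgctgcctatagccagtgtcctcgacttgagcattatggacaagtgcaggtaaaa
Gli2 A_52_P357829, chr1:118695197-118695256, minus strand: ttaactgaatttgcttgttcagtatggcct
Gli2 A_52_P564620, chr1:118696781-118696840, minus strand: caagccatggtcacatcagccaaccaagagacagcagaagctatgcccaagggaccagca
Gli3 A_51_P171288, chr13:15096631-15096690, plus strand: tcctgcagatgtgtaaAATAAActgtgttc
The hexamer was in 1 of the 15 probes, that of Gli3, and in 7.49% of all gene probes.

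Values are processed intensities, in arbitrary units, ± the scanner software's own error. A log2 difference is day 6 minus day 0 after the 75th percentile of each array was subtracted, ± an SD that follows from the software errors. That SD covers measurement error on the arrays only and was 0.21 log2 units for the median probe. A probe well above background on 1 array only gives a bound. There the dim array stands at its lowest intensity well above background, and the fold is written "at least". If the probe's own dim value is higher, that value is used and the fold is written without "at least". A gene is represented by its brightest probe (highest mean of the log2 intensities of both arrays) among those well above background on at least 1 array. Intensities of different probes depend on the probe and are not compared with each other. As in any bulk RNA, fewer cells of a type and less RNA per cell cannot be told apart.

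Both arrays shared a slide and a scan but took different places on it, and place and group cannot be told apart. The labels were checked against marker genes. All 7 ES cell markers were at least 2-fold lower on day 6, with summed intensities of 31551 on day 6 and 1064810 on day 0. Of 6 measured neural progenitor markers 4 were at least 2-fold higher and 0 lower, and of 6 neuron markers 5 were higher and 0 lower. Of 10 feeder fibroblast markers, 9 were well above background on day 6 and 9 on day 0, 6 were at least 2-fold lower and 1 (Pdgfra) higher, and their summed intensities were 42725 on day 6 and 166070 on day 0. Lox, a fibroblast matrix enzyme, was the marker not well above background on day 6. The part of feeder cells in the values below was not tested.

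The ligand, its receptor and most of the surface genes were higher on day 6, while the 3 Gli genes were within 2-fold. At least 2-fold higher on day 6 were 5 of the 9 genes (Shh, Ptch1, Hhip, Boc and Gas1), against 17.8% of the 14967 genes measured. At least 2-fold lower were 0 of the 9, against 20.0% of all genes. At the 4-fold threshold 4 were higher (Shh, Ptch1, Boc and Gas1), against 7.36% of all genes, and 0 were lower, against 8.35%. The median log2 difference of the 9 was 1.79, beside -0.09 for all genes. Higher genes were 47.1% of all genes counted at 2-fold, and 57.8% without scaling between the arrays, which puts the median of all genes at 0.13. Probe by probe, 12 of the 15 were well above background on at least 1 array. Of these 12, 7 were at least 2-fold higher, beside 17.6% of the 28378 probes measured, and 1 was at least 2-fold lower, beside 18.1%.

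**Figure D1:**
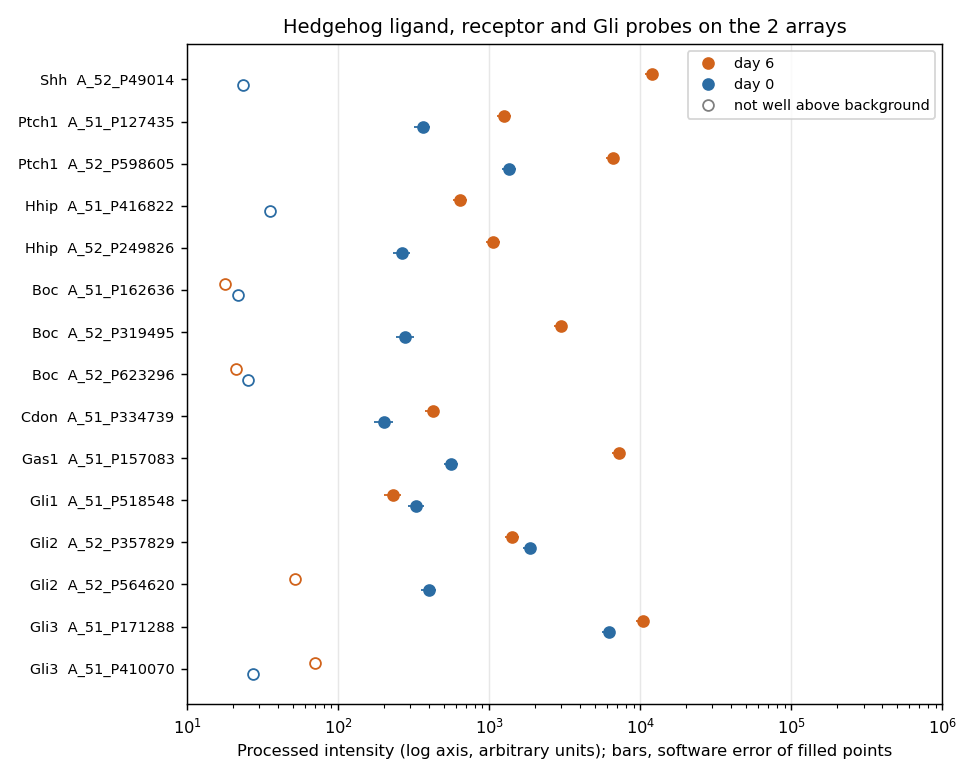
Processed intensity (log axis, arbitrary units) of the 15 probes on the day 6 array (orange) and the day 0 array (blue). Open points were not well above background, and bars on filled points are the software error. Day 6 stands above day 0 for every filled pair except those of Gli1 and Gli2.

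Shh, the ligand gene, was well above background on the day 6 array and not on the day 0 array. Its probe read 11957 ± 1196 intensity units on day 6 and 23.5 ± 23.3 on day 0, where it was not well above background. It was at least 100.2-fold higher on day 6, a log2 bound of 6.65, and 0.107% of all genes had a higher difference. The bound depends on the handling of background, and was 5.59 on the unsubtracted signal and 5.76 with another correction (normexp). The probe was printed 10 times. On day 6 the spots gave a lowest value of 11344, a median of 12062 and a highest of 12455. On day 0 the 9 spots used gave 21.0, 22.5 and 27.1 for the lowest, the median and the highest, and 0 of 10 were well above background. The spots of the arrays do not overlap. As the spots of an array share its RNA, this bears on measurement error only, here and for the probes below. Before background subtraction, the median spot read 12437 on day 6, over a local background of 69.0, and 99.9 on day 0, over a local background of 64.25.

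Markers of other embryonic tissues, among them the notochord and the gut endoderm that secrete Shh, stood as follows. Of 3 measured notochord markers all were within 2-fold, with summed intensities of 6240 on day 6 and 5403 on day 0. Of 8 endoderm markers, 4 were well above background on day 6 and 4 on day 0, and their summed intensities were 5028 on day 6 and 32569 on day 0. Most of both sums was Epcam, an epithelial adhesion gene that ES cells also express (11.6-fold lower on day 6), and without it they were 1874 on day 6 and 1206 on day 0. Among the others Foxa3 was at least 4.53-fold lower, Sox17 had a log2 difference of 1.58 ± 0.23, and Afp, Ttr and Hnf4a stayed dim on both arrays. Of 7 somite and limb mesenchyme markers, 5 were well above background on each array, with 1 at least 2-fold higher (Tbx6), 2 lower (Twist2 and Prrx1) and summed intensities of 9912 on day 6 and 7935 on day 0. Foxa1 and Foxa2 are not in these lists and are counted with the ventral neural tube genes below, so the lists do not cover every gene of these tissues. The part of these tissues in the Shh value was not tested.

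**Figure D2:**
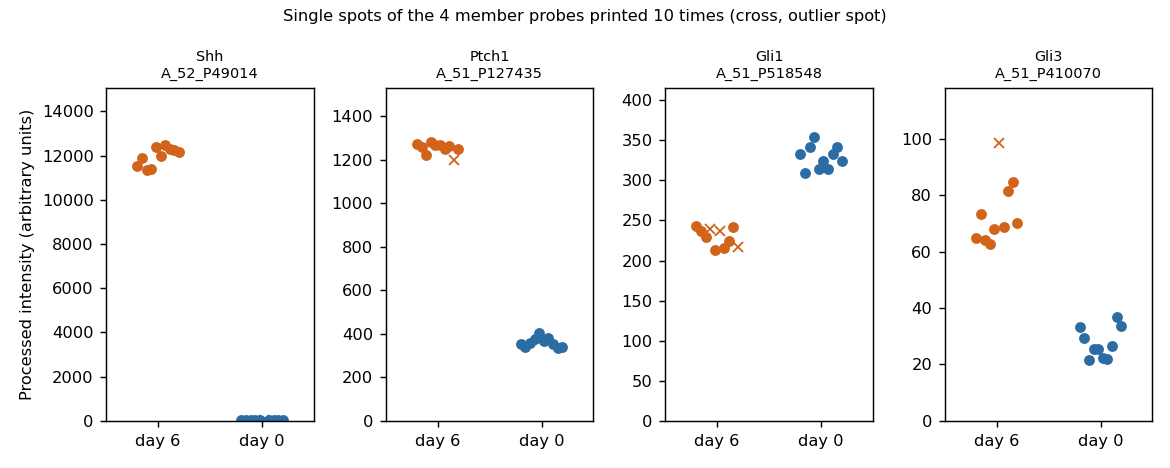
Intensity (arbitrary units, linear axes from 0) of each spot of the 4 probes printed 10 times, on the day 6 array (orange) and the day 0 array (blue). Crosses are outlier spots that were left out. Spots of day 6 lie above those of day 0 for Shh, Ptch1 and the dim Gli3 probe, and below them for Gli1.

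Ptch1, which encodes the receptor and is itself turned on by the signal, was higher on day 6 with both probes. The brighter probe had 6569 ± 657 on day 6 and 1355 ± 138 on day 0, giving a log2 difference of 2.05 ± 0.21 (4.15-fold). The other probe, 2609 bases upstream, had 1259 ± 127 on day 6 and 361 ± 42.3 on day 0, giving a log2 difference of 1.58 ± 0.22 (2.99-fold). It too was printed 10 times. Its spots ran to a lowest of 1222, a median of 1261 and a highest of 1281 on day 6, and to 336, 356 and 405 on day 0, so they do not overlap. The probes differed by 0.47 log2 units, close to the median gap of 0.47 over the 6528 genes with several measured probes.

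Hhip encodes a membrane protein that binds Hedgehog ligands and holds them away from Patched. Its brighter probe had 1064 ± 108 on day 6 and 264 ± 34.2 on day 0, giving a log2 difference of 1.79 ± 0.24 (3.46-fold). The second probe, 5485 bases downstream, had 644 ± 67.8 on day 6 and 35.2 ± 25.8 on day 0, where it was not well above background, and was at least 5.39-fold higher. Both probes were thus over 2-fold higher on day 6.

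By brightest probe, Boc and Gas1, which encode co-receptors that bind Shh together with Patched, had the largest differences of the surface genes among the 9. Boc had 2987 ± 299 on day 6 and 277 ± 37.7 on day 0, giving a log2 difference of 3.21 ± 0.24 (9.24-fold), and 2.47% of all genes had a higher difference. This rests on 1 of 3 Boc probes. The other two, 214 bases downstream and 13354 bases upstream, failed to stand well above background on day 6 or day 0, with 17.8 and 21.0 on day 6 and 21.6 and 25.3 on day 0. Gas1 had 7229 ± 723 on day 6 and 557 ± 59.9 on day 0, giving a log2 difference of 3.47 ± 0.21 (11.1-fold), and 97.99% of all genes had a lower difference.

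Cdon, the third co-receptor gene and a relative of Boc in the immunoglobulin superfamily, differed less. Its probe had 421 ± 45.4 on day 6 and 202 ± 28.7 on day 0, giving a log2 difference of 0.84 ± 0.26 (1.79-fold). It passed 2-fold in 1 of 14 processing choices, that without scaling, where the difference was 1.06. At the same place in the distribution, 20.9% of all genes had a higher difference. By brightest probe, the order of the surface genes by log2 difference was Gas1, Boc, Ptch1, Hhip and Cdon. With these probes, Gas1 and Boc differed from each other by about the software SD of either, as did Ptch1 and Hhip. The second Hhip probe had a bound of 2.43, past both Ptch1 probes. A bound is a least value, so the place of that probe beside Gas1 and Boc is not known. With the probes of a gene averaged, Hhip (2.11) passed Ptch1 (1.82).

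**Figure D3:**
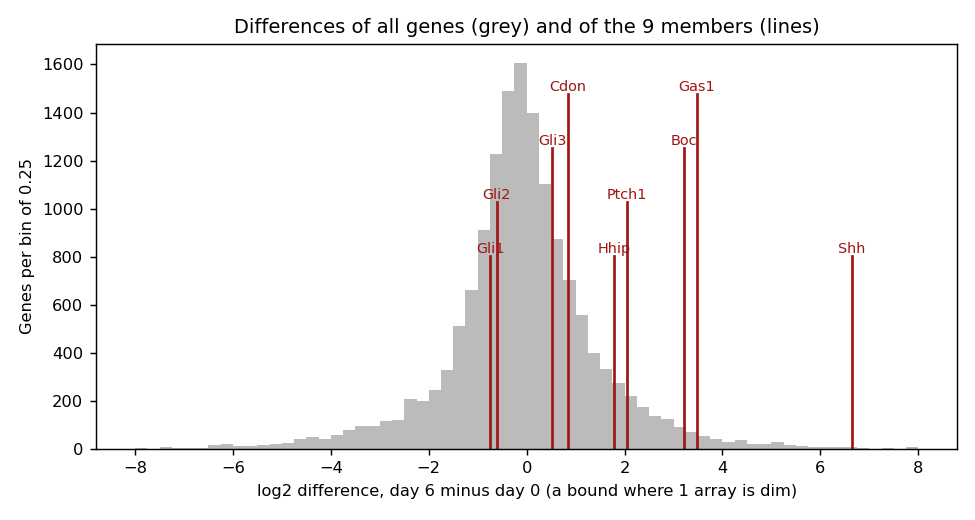
Number of genes (vertical axis, bins of 0.25) by log2 difference, day 6 minus day 0, for all 14967 genes (grey), with a line at each of the 9 Hedgehog genes. The line heights only separate the names. Shh is placed at its bound of 6.65, and the Gli lines lie between -0.74 and 0.52.

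The Gli genes encode the zinc finger factors at the end of the pathway. Gli1 is an activator whose gene is a common readout of Hedgehog signalling, Gli2 is the main activator in the mouse neural tube, and Gli3 acts mostly as a repressor. Gli1 had 229 ± 29.4 on day 6 and 328 ± 39.8 on day 0, giving a log2 difference of -0.74 ± 0.25 (1.67-fold lower on day 6). Its probe was printed 10 times. The 7 spots used on day 6 gave a lowest value of 213, a median of 230 and a highest of 243, and the 10 spots of day 0 gave 309, 328 and 354. All 10 spots were well above background on each array, and the groups of spots do not overlap. Spots of 1 array share 1 RNA, so this shows measurement error only. Of all genes, 73.8% had a higher difference than Gli1.

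Gli2 had 1418 ± 143 on day 6 and 1863 ± 188 on day 0 with its brighter probe, a log2 difference of -0.62 ± 0.21 (1.53-fold lower). The second Gli2 probe had 51.6 ± 18.3 on day 6, not well above background, and 398 ± 45.0 on day 0, and was at least 5.46-fold lower (log2 bound -2.45). Both differences are negative, but only the second passes 2-fold. The second probe lies 1584 bases upstream of the brighter one and has no stop codon in any of its 3 forward frames, while the brighter one has a stop codon in each. The gap between the probes was 1.83 log2 units, and 10.3% of genes with several measured probes had a gap as large or larger.

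Gli3 had 10399 ± 1040 on day 6 and 6213 ± 622 on day 0, giving a log2 difference of 0.52 ± 0.20 (1.43-fold higher). A second Gli3 probe, 2773 bases upstream, was not well above background on either array and gives no fold. Its 9 used spots on day 6 had a lowest value of 62.8, a median of 68.7 and a highest of 84.5, and its 10 spots on day 0 had 21.6, 26.1 and 36.9. Only 1 of its 10 spots was well above background on day 6 and 0 on day 0. The brighter Gli3 probe is the one with the polyadenylation hexamer, as printed above. The 3 Gli genes together had a median of -0.62.

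**Figure D4:**
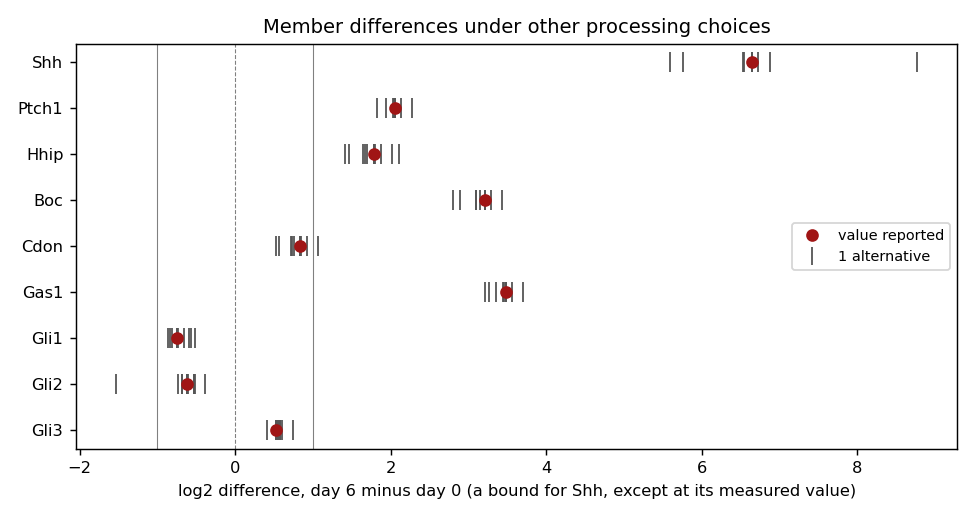
Log2 difference, day 6 minus day 0, of each of the 9 genes as reported (red point) and under each other processing choice (ticks), with lines at 2-fold. Shh, Ptch1, Hhip, Boc and Gas1 stay above 1 throughout, and no gene changes sign.

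The promoters were searched for the Gli binding motif GACCACCCA on either strand. RefSeq promoter windows, 250 bases before to 50 bases after the gene start, were at hand for 6 of the 9 genes (Ptch1, Hhip, Cdon, Gas1, Gli2 and Gli3). The exact motif was in 0 of the 6 and in 83 of 32851 promoters (0.253%). With 1 mismatch allowed it was in 0 of the 6 and in 6.74% of all. At these shares 0 of 6 is the likeliest count for any 6 promoters, so it tells nothing particular of these genes. A window this short says nothing of sites farther away.

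The other genes of the pathway were taken from lists of ligands and their release, receptors, relay proteins and the cilium. Every list count below is to be set beside all genes, of which 17.8% were at least 2-fold higher and 20.0% lower. In the counts, genes dim on 1 array were placed by their bound, while medians are of measured differences unless given at the bound. Of 40 measured genes outside the 9, 15 were at least 2-fold higher on day 6, 1 lower and 24 within 2-fold. The median of the 40 was 0.63 (0.61 at the bound), beside -0.09 for all genes. The 1 that was lower was Dhh. This gene, the Hedgehog ligand gene of testis and peripheral nerve, had 150 on day 6 and 682 on day 0 (5.30-fold lower, log2 difference -2.40 ± 0.27). Ihh, the ligand of cartilage and gut, was not well above background on either array. Shh and Dhh therefore differed in opposite directions. The summed feeder markers were lower on day 6 as well, and their part in the Dhh, Gli1 and Gli2 values was not tested.

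Genes for releasing the ligand included several seen on day 6 only. Scube1 and Scube2 encode secreted proteins of a family that, with Dispatched, frees lipid-bearing ligand from the cell. Scube1 had 7695 on day 6 and 45.1 on day 0, so it was at least 64.5-fold higher by its brightest probe. Its 3 probes had log2 differences or bounds between 1.52 and 6.01. Scube2 had 2337 on day 6 and 105 on day 0, not well above background, and was 19.1-fold higher. Its day 0 value was used as measured, so this is not a least value (log2 difference 4.26 ± 0.37). Disp2, a relative of the ligand exporter Disp1, was at least 3.80-fold higher. Of the 8 measured genes of the list, Shh included, 4 were at least 2-fold higher, 1 was lower and 3 were within 2-fold. Among the 3, Scube3 was well above background on day 6 only and was placed by its bound of -0.37 (measured difference 0.82). A bound is a least value, so it may lie past 2-fold. Hhat had 0.27 with its brightest probe and 2.09 with another. The list median was 2.12, and 1.10 with genes dim on 1 array at their bound. It was 0.18 when only genes well above background on both arrays were kept and 0.82 with no filter. Without Shh it was 0.82, and 0.27 at the bound.

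Smo, the membrane protein that Patched restrains, had 81199 on day 6 and 23326 on day 0, giving a log2 difference of 1.58 ± 0.20 (2.98-fold higher). Its other probe gave 0.87, taken as a bound, and a bound does not show whether a probe passes 2-fold. Gpc3, a surface proteoglycan that competes for Hedgehog ligands in the mouse, was 4.40-fold higher. Sufu, which holds Gli proteins in the cytoplasm, had 7935 on day 6 and 6350 on day 0, giving a log2 difference of 0.10 ± 0.20, and its probes ran between -0.41 and 0.10. Of 20 measured relay genes, 5 were at least 2-fold higher, 0 lower and 15 within 2-fold, with a median of 0.37. Over all genes, 17.8% were at least 2-fold higher and 20.0% lower. Among the 15, Evc2 had 0.33 with its brightest probe and -2.24 with another. The 5 were the kinase gene Stk36 (2.63-fold), the protein kinase A regulatory subunit gene Prkar1a (2.72-fold), the Gli kinase genes Gsk3b (2.73-fold) and Csnk1e (2.47-fold), and the arrestin gene Arrb1 (2.56-fold). Except for Prkar1a, which had 1 probe, these calls rest on the brightest probe. The second probe was under 2-fold in each case, with log2 differences of 0.92 for Stk36, 0.71 for Gsk3b, 0.90 for Csnk1e and -0.33 for Arrb1.

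The cilium, where Gli proteins are processed, was read with 10 genes, of which 5 were at least 2-fold higher, 0 lower and 5 within 2-fold, with a median of 0.83. Those higher were the intraflagellar transport genes Ift122 (2.91-fold), Ift140 (2.71-fold) and Ift172 (2.08-fold), and the motor genes Dync2h1 (2.77-fold) and Kif3a (2.56-fold). Genes with several probes had some under 2-fold, and the log2 differences ran between -0.46 and 1.44 for Ift140, between 0.29 and 1.20 for Ift172 and between 0.53 and 1.96 for Dync2h1. With the probes of each gene averaged, the list median was 0.48.

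**Figure D5:**
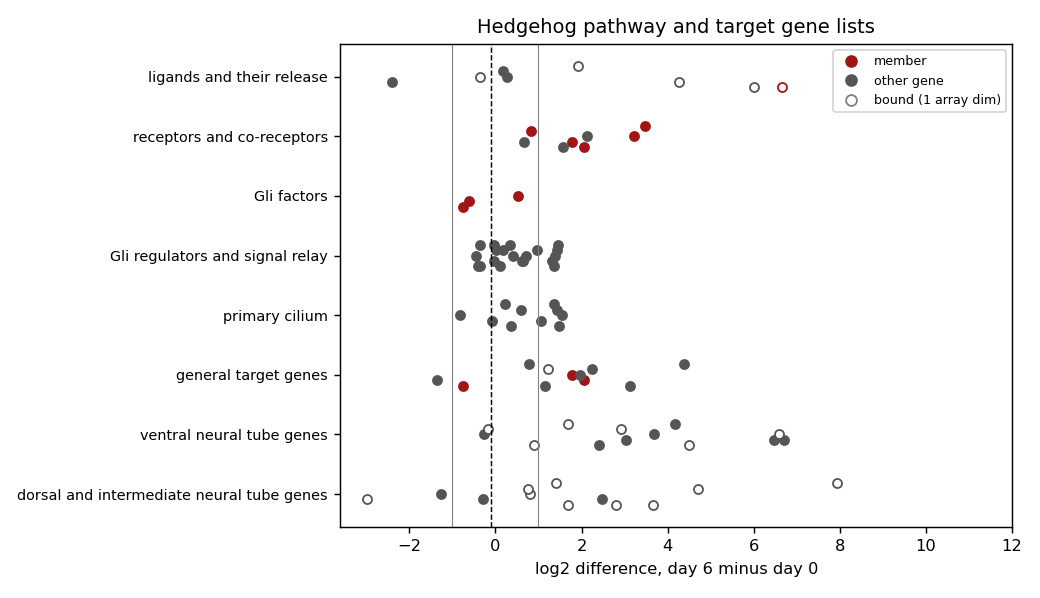
Log2 difference, day 6 minus day 0, of each measured gene of 8 lists, with the 9 Hedgehog genes in red, other genes in grey and bounds as open points. The dashed line is the median of all genes (-0.09) and the grey lines are 2-fold. The 3 Gli genes and 15 of 20 relay genes lie within 2-fold, and 10 of 13 ventral neural tube genes lie past 2-fold on the higher side.

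Genes that Hedgehog signalling turns on in many tissues differed in both directions. Besides Ptch1, Hhip and Gli1, 8 were measured, of which 6 were at least 2-fold higher and 1 lower, with a median of 2.11 (1.59 at the bound). Sfrp1, a secreted Wnt inhibitor, was 20.7-fold higher, the cyclin gene Ccnd2 8.76-fold, the survival gene Bcl2 4.76-fold (another probe gave a log2 difference of 0.84), the forkhead gene Foxf2 3.90-fold and the trafficking gene Rab34 2.21-fold, and Hsd11b2 was at least 2.33-fold higher. The gene that was lower, Mycn, a Myc family transcription factor gene that ES cells also express, had a log2 difference of -1.35 ± 0.20. These genes have other inputs, and their response to Hedgehog ligand was not measured here.

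Ventral neural tube genes, which the floor plate and neighbouring progenitors express, were at least 2-fold higher in 10 of 13 cases and lower in 0. The list median was 3.95 (3.03 with 6 genes at their bound). Foxa2, a floor plate factor that acts upstream of and downstream of Shh, had 50104 on day 6 and 411 on day 0 (104.6-fold higher), and Foxa1 was at least 22.7-fold higher. The floor plate genes Spon1 and Ntn1 were at least 95.6-fold higher and 8.19-fold higher. Among progenitor factors, Nkx6-1 was 89.3-fold, Nkx2-2 18.2-fold, Nkx6-2 12.9-fold and Nkx2-9 5.27-fold higher, while Nkx2-1 (at least 7.57-fold) and Olig2 (at least 3.23-fold) were seen on day 6 only.

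Dorsal and intermediate neural tube genes, many of which Shh represses in the embryo, differed in both directions. Of 12 measured, 7 were at least 2-fold higher and 2 lower, and for 9 of the 12 only a bound is known. The list median was 2.69, and 1.55 at the bound, but -0.29 when only genes well above background on both arrays were kept. Dbx1, a factor of intermediate progenitors, was at least 245.8-fold higher, and Irx3, Pax3 and Wnt1 were at least 26.3-fold, 12.6-fold and 7.002-fold higher. Dbx2 and Lmx1a were at least 3.22-fold and 2.65-fold higher, and Pax6 was 5.61-fold higher, though its probes ran between -0.04 and 2.49. Wnt3a, a roof plate signal, was well above background on day 0 only and at least 7.87-fold lower on day 6, and Msx2 was 2.41-fold lower. Genes of both the ventral and the dorsal lists were thus among those higher on day 6.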

How the data were processed

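The authors deposited 1 scanner file per array. Per the file headers, both arrays had design 014868 and were read with Feature Extraction 9.5.3.1. The intensity used is the deposited processed signal, which the software had corrected for background and spatial trends. The authors also deposited a log2 value table, and the steps behind it are not stated in the labels. Its columns had been made equal (largest gap 0.000469, median 8.53 in both), and its differences correlated with the scanner values at r = 0.996 across probes. It was used as an alternative.

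Control and outlier spots were left out, log2 intensities of the spots of a probe were averaged, and the 75th percentile (4371 on day 6, 3746 on day 0) was subtracted. A probe counted as well above background where at least 0.5 of its used spots were, which held for 65.3% of probes on day 6 and 61.3% on day 0. The lowest such intensity was 85.2 on day 6 and 102 on day 0. Spots marked as saturated stayed in. Probes were named through RefSeq (assembly GRCm38.p6, names only), and 8455 had no symbol. Bounds were used for 1999 of 14967 genes. The software error model has a multiplicative error of 0.1. Between spots of probes printed 10 times, the median SD was 0.0449 log2 units on day 6 and 0.0532 on day 0. The number of arrays limits the precision, and neither error holds the variation between cultures.

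The 9 genes and all lists were chosen with earlier results of these data known. The text names every one of the 9 with every probe. It also names genes of the pathway and target lists at least 2-fold apart by their brightest probe. Smo, Sufu, Ihh and Dhh are named in any case, and Evc2, Scube3 and Hhat were added after their values were seen. A further gene of the lists is not reported here, and the list counts leave it out. Marker genes are given by counts and sums, with a few named after their values were seen. The Gli motif, the probe features and the endoderm sum without Epcam were chosen after the data were seen. Promoter windows are from RefSeq. The calculation was tested on simulated data. Python 3.11.15, numpy 2.4.6, pandas 2.3.3, matplotlib 3.10.9, R 4.3.3 and limma 3.58.1 (normexp) were used.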

Additional observations from a re-analysis of the deposited data

How the results depend on the processing

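No paired analysis was possible because each group had 1 array, and no replicate could be left out. Under 13 alternatives to the processing, 2 of them chosen after seeing the data (dim genes at their measured value, outlier spots kept), 116 log2 differences of the 9 genes were recomputed. Of these 15 moved by more than the software error and 0 reversed. The median of the 9 genes was 1.46 with normexp, 1.41 on the unsubtracted signal and 1.31 when only genes well above background on both arrays were kept, which leaves Shh out. The number at least 2-fold lower was 1 in place of 0 with the probes of a gene averaged and 1 with probes in place of genes, in both cases through the second Gli2 probe. Counting probes gave 4981 higher and 5132 lower over the whole array, because more items were counted. Gli2 ran between -1.53 and -0.39, Shh between 5.59 and 8.77, and Ptch1 between 1.82 and 2.28, on both sides of 4-fold. Of 104 medians of pathway lists, 19 moved and 1 reversed, that of dorsal and intermediate neural tube genes, at -0.29 with the filter on both arrays, which leaves out 9 of its 12 genes. Median scaling put the median of all genes at -0.21. Signal over background limits Shh, the second Hhip and Gli2 probes and the dim Boc and Gli3 probes. The handling of background also moved other values by more than the software error. On the unsubtracted signal Boc had 2.80, Hhip 1.41, Cdon 0.52 and Gas1 3.22. With normexp Boc had 2.89, Hhip 1.46 and Cdon 0.56.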
